A study of Mus musculus with 9 samples.

Results

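Among the 2462 genes of a messenger RNA table of the mouse caput epididymis, 61 carry symbols of axonemal, ciliary and coiled-coil families. They were taken by the start of the gene symbol: Ccdc, Dnah, Cfap, Spata, Bbs, Ttc, Cep, Rsph, Efhc, Ttll, Iqc, Wdr, Lrrc (other than Lrrc8) and Tssk. No gene with a symbol starting with Dnaic, Dnal, Ift, Tekt, Spef, Tctn, Tctex, Drc, Armc or Ropn was analysed here. The rule reads only letters. It therefore mixes true parts of the axoneme and the centriole with genes that share only a protein repeat or a symbol. The caput is the first stretch of the duct in which sperm mature, and it was sampled from mice of 14 weeks in 3 groups of 3 libraries. Wild-type mice without treatment (WT) were set against mice of wild-type genotype whose efferent ducts had been ligated (EDL), so that neither fluid nor sperm of the testis reaches the duct, and against untreated mice of the W/Wv genotype. The W/Wv genotype combines mutant alleles of the receptor gene Kit and leaves testes nearly devoid of germ cells and a body with few mast cells. The loss of germ cells cannot be told apart here from other effects of that genotype. The labels name no sham operation, no strain and no separate animals, so an effect of surgery cannot be told apart from that of the block. The p-values therefore reflect only how far these libraries scatter, which may be technical.

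The library totals in the table ranged from 3536249 to 4793223 reads, and the WT libraries differed more among themselves (chi-square per gene of 13.4 to 24.9) than the EDL or W/Wv libraries did (3.15 to 7.34). WT library 3 stood apart from the other WT libraries: both pairs that hold it were the widest (19.8 and 24.9), and Lcn5, a lipocalin of caput principal cells, was at 1613 FPKM in it against 308 and 186. Results that rest on this library are given with and without it where both could be tested. The tissue label was met by Gpx5, a secreted peroxidase of caput principal cells, at 26828 ± 1869 FPKM in WT (SD, n = 3; FPKM counts fragments per transcript length and sequencing depth). A bulk library cannot tell fewer cells of a type from less RNA per cell.

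The axoneme is the microtubule skeleton of motile cilia and of the sperm tail. Dynein arms slide its doublets, radial spokes and the nexin-dynein regulatory complex coordinate the arms, and inner proteins stiffen the tubules. Every cilium grows from a basal body, a centriole with appendages that dock it at the membrane, and is built by intraflagellar transport. In the male tract, motile axonemes belong to sperm and to the ciliated cells of the efferent ducts. The principal cells of the caput bear stereocilia, which hold actin and no axoneme, and primary cilia have been described on epididymal basal cells.

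Promoters are shown first for 4 members that were lower in both models and whose start region holds a motif of interest. Factors of the RFX family, regulators of ciliary genes, bind the X-box, searched as GTNNCC, then NNN, then GNAAC without a gap, and CREM, a regulator of spermatid genes, binds the cAMP response element, searched as TGACGTCA. Both strands were read, and the motifs do not overlap in the windows printed. RefSeq promoters (GRCm38.p6, from 250 bases before to 50 after each start) were given for 53 of the 61 members, in 66 windows. The X-box was found in 7 of these windows (10.6%), against 2.89% of the 2460 windows of all genes in the table and 2.17% of 32851 windows in all. The cAMP response element was in 3 windows of 2 members (4.55%), against 2.24% and 1.79%. These are counts of letters with no test, and 2 of the 3 windows are start sites of Iqcf3 that lie 1 base apart. The lines below run from 130 bases before to 20 bases after the start, on the gene's strand, with the motif in capitals.
Iqca, chr1:90153417-90153566, minus strand: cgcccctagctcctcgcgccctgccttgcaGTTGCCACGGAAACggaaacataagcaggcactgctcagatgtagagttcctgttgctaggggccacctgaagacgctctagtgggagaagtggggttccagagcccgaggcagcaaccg
Wdr47, chr3:108591603-108591752, plus strand: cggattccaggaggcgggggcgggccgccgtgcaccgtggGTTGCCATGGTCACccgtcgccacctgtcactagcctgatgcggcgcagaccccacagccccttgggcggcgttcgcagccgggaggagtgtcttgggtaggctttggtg
Spata4, chr8:54600651-54600800, plus strand: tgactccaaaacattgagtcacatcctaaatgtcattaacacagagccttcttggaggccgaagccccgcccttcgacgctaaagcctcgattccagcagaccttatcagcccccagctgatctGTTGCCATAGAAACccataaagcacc
Iqcf3, chr9:106561606-106561755, minus strand: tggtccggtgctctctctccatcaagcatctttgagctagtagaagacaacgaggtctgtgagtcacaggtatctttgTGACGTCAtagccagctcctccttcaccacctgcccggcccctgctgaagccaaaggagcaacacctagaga
The X-box lies at position -100 from the start in Iqca, at -90 in Wdr47, in 1 of its 2 windows, and at -6 in Spata4, and the cAMP response element of Iqcf3 at -52. In Wdr47 the X-box matches on the opposite strand only, so the capitals show its reverse complement. The other 4 members with an X-box, Cep44, Cep83, Lrrc71 and Lrrc10b, did not share this direction in both models.

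Of the 61 members, 45 had at least 1 FPKM in 3 or more libraries and entered the main test. In EDL against WT, 32 of the 45 changed (limma, adjusted p under 0.05 over all genes), 18 upward and 14 downward. The table as a whole was called at 75.3%, with 39.4% higher and 35.9% lower, so the share of changed members lay near that of all genes tested. In W/Wv against WT, 28 of 45 changed, 13 upward and 15 downward, beside 70.3% of the table, 35.3% higher and 35% lower. The median change of the tested members was 0.14 in EDL and 0.03 in W/Wv on the log2(FPKM + 1) scale, on which a gene near 1 FPKM moves less than its ratio. The WT libraries are shared by both comparisons. Counted as groups without any overlap between libraries, 45 of all 61 members stood apart from WT in EDL and 45 in W/Wv, beside 73.7% and 68.2% of the table. By edgeR on the recovered reads, 43 of 59 members changed in EDL, 19 upward and 24 downward, where 73.1% of the table changed, 35.5% upward and 37.6% downward. In W/Wv it was 39 of 59, 14 upward and 25 downward, where 66.9% changed, 31% upward and 35.9% downward. Efhc2 and Cfap58 entered the limma test only through WT. Rsph6a, Spata4, Spata19, Spata21, Iqcf3 and Iqcf4 entered the edgeR test only through WT. Their part of the downward counts supports nothing.

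**Figure D1:**
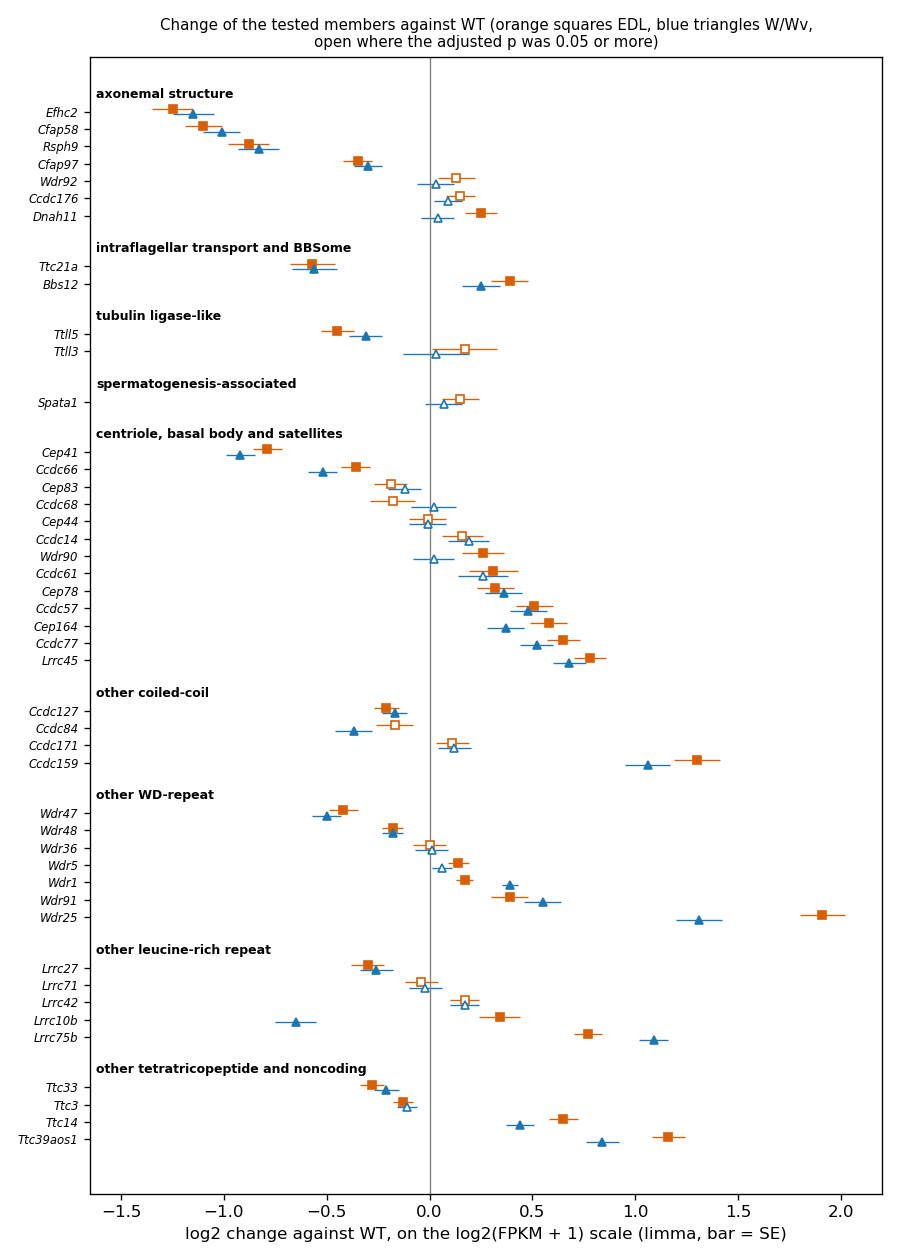
Change of the 45 tested members against WT, with EDL as squares and W/Wv as triangles, on the log2(FPKM + 1) scale (x axis; bars are the SE of the limma fit), grouped by role. Filled symbols passed an adjusted p of 0.05; Efhc2 and Cfap58 lie farthest to the left and Wdr25 farthest to the right.

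Of the 7 axonemal genes tested by limma, 4 fell in EDL and 4 in W/Wv, Efhc2, Cfap58, Rsph9 and Cfap97, beside 35.9% and 35% of the table. Efhc2 and Cfap58 reached the filter only through their WT level, so their difference was built into their entry and their part of that count supports nothing. They are therefore given by edgeR on the recovered reads. Efhc2 encodes an EF-hand protein that lines the inner wall of ciliary doublets. Its level was 1.44, 1.85 and 1.39 FPKM in the WT libraries, 0.0550, 0.0660 and 0.0919 in EDL and 0.141, 0.286 and 0.0444 in W/Wv. Every library of both models lay below every WT library, and the WT mean was 22-fold that of EDL and 9.9-fold that of W/Wv. The edgeR log2 change was -4.41 in EDL (adjusted p = 2.9e-08) and -3.29 in W/Wv (adjusted p = 3e-07). Cfap58, a coiled-coil protein that the sperm midpiece and tail need, had 1.17, 1.66 and 1.65 FPKM in WT, 0.178, 0.115 and 0.179 in EDL and 0.282, 0.181 and 0.232 in W/Wv. Its WT mean was 9.49-fold that of EDL and 6.44-fold that of W/Wv, again without overlap (edgeR adjusted p = 6.5e-09 and 4.5e-08). As reads, Efhc2 had 223 in WT, 11 in EDL and 21 in W/Wv, and Cfap58 had 282, 33 and 41.

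Rsph9 and Cfap97 fell from levels well above the filter. Rsph9, a head protein of the radial spoke, was at 8.78, 8.74 and 8.82 FPKM in WT, at 4.48, 3.50 and 5.08 in EDL and at 4.71, 4.34 and 4.51 in W/Wv. The fall was 2.02-fold in EDL (log2 change -0.88, SE 0.10, adjusted p = 6.4e-06) and 1.94-fold in W/Wv (-0.83, SE 0.10, adjusted p = 1.2e-05). For Rsph9, W/Wv against EDL gave a difference of 0.06 (SE 0.10) with an adjusted p of 0.77, which does not show equal levels. Cfap97, the mouse relative of the fly ciliary gene hemingway, fell from a WT level of 9.69 ± 0.229 FPKM to 7.38 ± 0.443 when the ducts were ligated and 7.71 ± 0.533 in W/Wv (adjusted p = 0.00046 and 0.0016).

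The heavy chains of axonemal dynein parted. Dnah11, an outer-arm heavy chain of respiratory and nodal cilia, rose in EDL, from 1.55, 1.60 and 1.32 FPKM in WT to 1.94, 2.03 and 1.89 (log2 change 0.25, SE 0.08, adjusted p = 0.012). The adjusted p was 0.056 without WT library 3, the lowest WT library of this gene. In W/Wv it was at 1.46, 1.63 and 1.60 FPKM, overlapping WT (adjusted p = 0.64). Dnah8, the outer-arm heavy chain of the sperm tail, lay below the filter and is given in normalized counts. It had 23.8, 53.0 and 30.4 in WT, 12.8, 17.3 and 21.7 in EDL and 16.5, 10.6 and 9.72 in W/Wv, and it fell by edgeR on the recovered reads (log2 change -1.07 with adjusted p = 0.0074 in EDL, -1.57 with 0.00094 in W/Wv). Without WT library 2, the highest, the EDL call was lost (adjusted p of up to 0.14 over the alternatives), and limma without a filter did not call either change.

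Other axonemal genes were low or did not change. Iqca is the mouse form of a subunit of the nexin-dynein regulatory complex. It had normalized counts of 37.2, 19.3 and 22.8 in WT, 4.01, 3.86 and 14.5 in EDL and 7.22, 13.5 and 9.72 in W/Wv, and fell by edgeR in both (log2 change -1.77, adjusted p = 0.0017, and -1.35, adjusted p = 0.01). No EDL or W/Wv library reached the lowest WT library, though W/Wv lost the call without WT library 1 (adjusted p = 0.059). Rsph6a, a radial spoke protein of the sperm tail, had 19 reads in WT and 0 in EDL and W/Wv. Against a floor of 3 reads over a group, which covers counting error only, it was at least 6.94-fold lower in EDL and at least 5.98-fold lower in W/Wv. Wdr92, a chaperone partner in the assembly of dynein arms, had 9.92 ± 1.66 FPKM in WT, 10.8 ± 0.383 in EDL and 10.1 ± 0.189 in W/Wv, with adjusted p of 0.22 and 0.79. Without WT library 3, its highest at 11.8 FPKM, Wdr92 passed in both (lowest adjusted p of 0.0028 and 0.041). Ccdc176, the basal body orientation factor Bbof1, had 1.47 ± 0.101, 1.73 ± 0.0856 and 1.63 ± 0.0865 FPKM and did not pass (adjusted p = 0.093 and 0.29). Ccdc78, which acts in the mass production of centrioles in multiciliated cells, had 42, 51 and 38 reads and did not pass by edgeR (adjusted p = 0.72 and 0.88). Despite that role, Ccdc78 was counted with the axonemal members. In all, edgeR tested 11 axonemal members, of which 7 fell and 1 rose in EDL and 7 fell in W/Wv, shares to be read against the 37.6% and 35.9% of the table that fell by the same test. Rsph6a reached the 10 reads that edgeR required only through WT, so its part of these counts supports nothing.

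**Figure D2:**
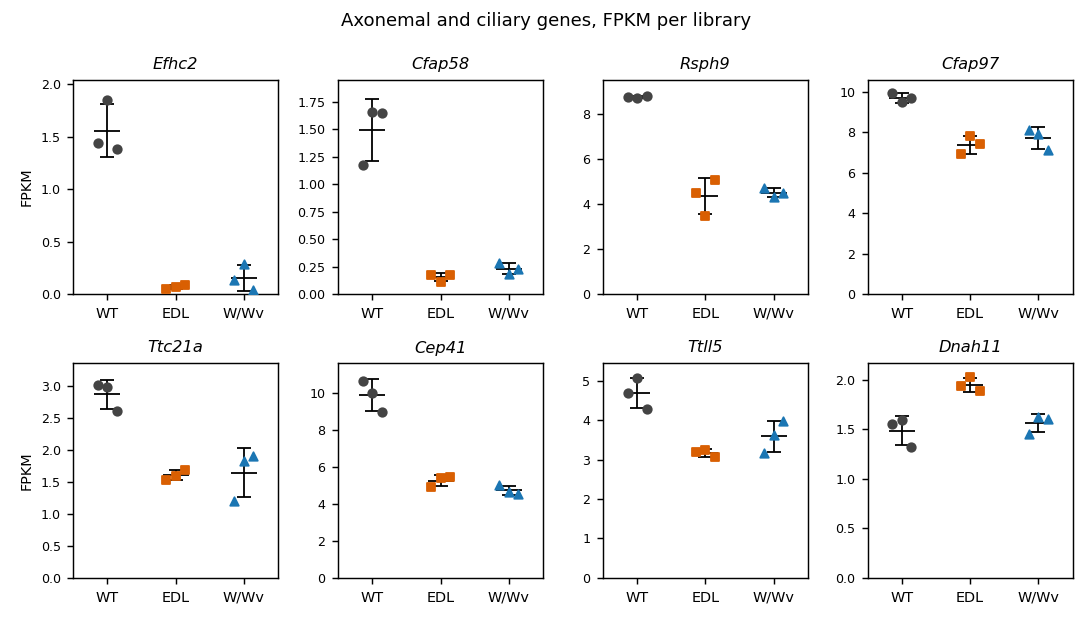
FPKM of 8 members per library (y axis from 0) in WT, EDL and W/Wv; symbols are libraries, and bars are the mean ± SD of 3. Efhc2 and Cfap58 are near 0 in both models, Rsph9 and Cep41 at about the middle of the WT level, and Dnah11 is above WT in EDL.

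Most genes named for spermatogenesis or testis had few reads in WT and fewer or none in both models. Of the 11 members of this class, edgeR tested 9, of which 6 fell in EDL and 7 in W/Wv, beside 37.6% and 35.9% of the table. Of those that fell, Spata4, Spata19, Spata21, Iqcf3 and Iqcf4 reached the 10 reads that edgeR required only through WT. Their part of both counts supports nothing. The summed normalized count of all 11 was 155 to 176 in the WT libraries, 121 to 140 in EDL and 112 to 124 in W/Wv, and most of it came from Spata1 and Lrrc18, which did not pass in either model. Without this pair, a choice made after the values were seen, the 9 members Spata4, Spata19, Spata20, Spata21, Tssk2, Iqcf1, Iqcf3, Iqcf4 and Iqcf5 together had 178 reads in WT, 20 in EDL and 15 in W/Wv. Their summed normalized count was 38.1, 66.7 and 59.7 in the WT libraries, 7.23, 3.86 and 5.64 in EDL and 4.13, 3.86 and 6.80 in W/Wv. The lowest WT library lay above every EDL and W/Wv library on this sum. That choice left out the members that did not pass, so the separation supports nothing about the class. Of these 9 members, 6 had no read in any EDL or W/Wv library. None of them reached the filter, so the deposited normalized count carries them. Of all 16 members below the filter, 14 had the 10 reads that edgeR required.

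The 4 members Spata4, Spata19, Spata20 and Spata21 fell by edgeR in EDL and in W/Wv. Spata21, which encodes an EF-hand protein, had normalized counts of 6.67, 20.9 and 10.9 in WT and 1 read in each model. The WT level was 47.1-fold that of EDL, with a 95% counting interval of 8.02 to 1.9e+03, and 40.6-fold that of W/Wv, with 6.91 to 1.64e+03. Spata20, a thioredoxin-like protein, had 11.4, 17.7 and 15.2 in WT, 2.41, 2.89 and 3.22 in EDL and 3.09, 1.93 and 4.86 in W/Wv, with adjusted p of 0.00018 and 0.00051 by edgeR. Spata4 had 4.76, 8.04 and 4.34 in WT and no read elsewhere, which puts it at least 6.94-fold lower in EDL and at least 5.98-fold lower in W/Wv. Spata19, a protein of sperm mitochondria, had 0.953, 1.61 and 8.68 in WT, mostly from library 3, and 0 in both models (edgeR adjusted p = 0.02 and 0.028). WT library 3 held 8 of its 11 reads. Without WT library 2 or 3 too few reads were left for edgeR, so neither call of Spata19 could be tested there. Leaving out any single W/Wv library ended its W/Wv call (adjusted p of up to 0.064).

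The Iqcf genes, which encode IQ-motif proteins of the kind that bind calmodulin, form a cluster on chromosome 9 between 106499967 and 106570967 (mm10) and are paralogs, so the counting could have split their reads. Iqcf3 had normalized counts of 5.72, 6.43 and 4.34 in WT, and Iqcf4 had 1.91, 4.82 and 7.60. Both were at 0 in every EDL and W/Wv library, at least 6.58-fold and 5.48-fold lower in EDL and at least 5.66-fold and 4.72-fold lower in W/Wv. Iqcf1, with 7 reads in WT, and Iqcf5, with 1, were too low for edgeR and also had none in the models. Tssk2, a kinase of spermatids, had 16 reads in WT, 9 in EDL and 4 in W/Wv. It did not pass in EDL (edgeR adjusted p = 0.17) but did in W/Wv (adjusted p = 0.034), a call that was lost without WT library 1 or 2 or without W/Wv library 1 or 2 (adjusted p of up to 0.09). The remaining members of this class, both near or above the filter, differed from these: Spata1 had 2.65 ± 0.0357 FPKM in WT, 3.07 ± 0.365 in EDL and 2.84 ± 0.262 in W/Wv (adjusted p = 0.12 and 0.48), and passed in EDL without EDL library 1, its lowest there (adjusted p = 0.033). Lrrc18, a testis protein, had normalized counts of 31.4, 24.1 and 28.2 in WT, 28.9, 28.9 and 27.4 in EDL and 17.5, 20.3 and 25.3 in W/Wv (edgeR adjusted p = 0.91 and 0.17); limma without a filter called it lower in W/Wv (adjusted p = 0.018).

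**Figure D3:**
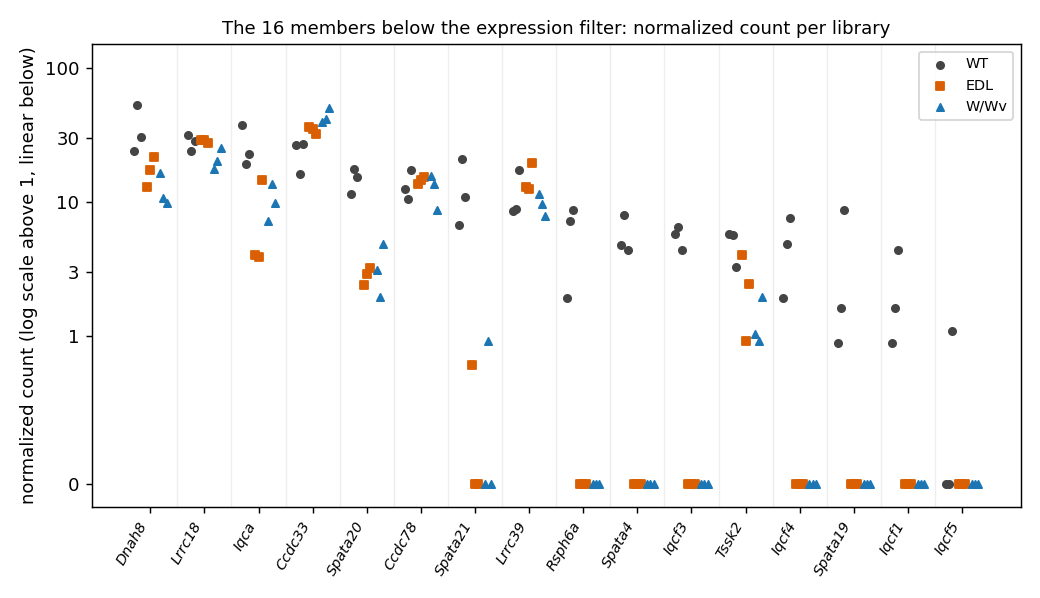
Normalized count per library (y axis, log scale above 1 and linear below) of the 16 members below the expression filter, in order of the WT mean. The symbols of Rsph6a, Spata4, Spata19 and the Iqcf genes lie at 0 in all EDL and W/Wv libraries. Dnah8, Iqca, Ccdc33, Ccdc78, Lrrc18, Lrrc39, Spata20 and Tssk2 have reads in every library.

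Transcripts of spermatids and sperm moved with these members. Of 38 genes listed as their markers, 19 were in the table. Their summed level was 137 to 142 FPKM in WT, 3.02 to 3.97 in EDL and 3.76 to 4.11 in W/Wv. In EDL 8 of the 19 had no read (Tnp1, Tnp2, Smcp, Akap4, Pgk2, Theg, Actl7a and Gsg1), and in W/Wv 9 (Prm2, Tnp2, Smcp, Akap4, Pgk2, Fscn3, Theg, Actl7a and Gsg1). By edgeR 16 of 17 fell in each model, beside 37.6% of the table in EDL and 35.9% in W/Wv. Prm1, Prm2, Tnp1, Tnp2, Smcp, Akap4, Ldhc, Pgk2, Crisp2, Actl7a and Gsg1 reached the 10 reads that edgeR required only through WT. Their part of both counts supports nothing. The part of sperm RNA in the falls of Efhc2, Cfap58, Rsph9, Iqca, Dnah8 and the Spata and Iqcf genes was not tested. Of 53 listed genes of multiciliated cells, such as those that line the efferent ducts, 2 were in the table and both were low. Dnaaf1, a dynein arm assembly factor, had 131 reads in WT, 96 in EDL and 80 in W/Wv, and Zbbx had 30, 13 and 11. Both lay below the filter and fell by edgeR in each model, where 37.6% of the table fell in EDL and 35.9% in W/Wv. The adjusted p was near the threshold for Dnaaf1 (0.047 in EDL and 0.041 in W/Wv), and 0.023 and 0.028 for Zbbx. Their summed level was 0.888 to 1.32 FPKM in WT, 0.573 to 0.775 in EDL and 0.388 to 0.754 in W/Wv. Their part was likewise not tested.

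The 2 transport members moved in opposite directions, while of the 2 tubulin-modifying members 1 fell and 1 did not pass. Ttc21a, a paralog of the intraflagellar transport subunit Ttc21b that human sperm tails need, fell from 3.02, 2.99 and 2.61 FPKM in WT to 1.54, 1.60 and 1.69 in EDL and 1.21, 1.84 and 1.90 in W/Wv (log2 change -0.57 and -0.56, SE 0.11 each, adjusted p = 0.00048 and 0.00061). Bbs12, a chaperonin-like protein that helps to assemble the BBSome, the coat that carries ciliary membrane cargo, rose from 3.65, 2.61 and 2.95 FPKM to 4.48, 4.08 and 4.32 in EDL (log2 change 0.39, SE 0.09, adjusted p = 0.0024). In W/Wv it rose to 3.85, 3.95 and 3.65 (adjusted p = 0.029), a call lost in a fit of only WT and W/Wv, without WT library 2 or 3 and without W/Wv library 1 or 2 (adjusted p of up to 0.12). Ttll5, a polyglutamylase that adds glutamate chains to tubulin, fell from 4.70, 5.08 and 4.29 FPKM to 3.20, 3.25 and 3.07 in EDL and 3.17, 3.63 and 3.97 in W/Wv (adjusted p = 0.00044 and 0.0054). Ttll3, a glycylase of tubulin, ranged from 1.25 to 2.65 FPKM within WT, wider than any difference between groups (adjusted p = 0.32 and 0.89). Without WT library 1, its highest, Ttll3 passed in EDL (adjusted p = 0.013).

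Tubulin genes outside the family names were counted from a list of tubulins and their modifying enzymes, of which 6 of 29 were in the table and 3 were tested. Agtpbp1, which trims glutamate chains from tubulin, rose from 3.40 FPKM in WT to 8.78 in EDL and 8.14 in W/Wv (log2 change 1.16 and 1.06, adjusted p = 1.1e-07 and 2.6e-07). Hdac6, the tubulin deacetylase, rose from 11.2 to 22 and 25.4 (log2 change 0.91 and 1.11, adjusted p = 6.6e-08 and 1.5e-08). The alpha-tubulin gene Tuba1a fell from 55 to 35.9 and 32 (log2 change -0.60 and -0.77, adjusted p = 9.5e-06 and 1.3e-06). Tuba3a and Tuba3b, near-identical alpha-tubulin genes of the testis between which reads cannot be divided safely, had 45 and 41 reads in WT, 4 and 0 in EDL and 9 and 0 in W/Wv. Tube1, the epsilon-tubulin gene of centrioles, had 74 reads in WT, 160 in EDL and 98 in W/Wv, and rose by edgeR in EDL (log2 change 0.99, adjusted p = 0.0022) but did not pass in W/Wv (adjusted p = 0.12).

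All 13 genes of the centriole and basal body were tested. In EDL 7 rose, 2 fell and 4 did not pass, where 39.4% of the table rose and 35.9% fell. In W/Wv 5 rose, 2 fell and 6 did not pass, where 35.3% rose and 35% fell, so the share that rose in W/Wv was near that of the table. Lrrc45, a linker between centrioles that also acts at the distal appendages, rose from 12.4, 11.6 and 10.9 FPKM in WT to 20.2, 20.7 and 21.4 in EDL and 19.2, 17.3 and 21.6 in W/Wv. That is 1.78-fold and 1.66-fold (log2 change 0.78 and 0.68, SE 0.08 each, adjusted p = 2.1e-06 and 7.4e-06), with no overlap. Cep164, a distal appendage protein that docks the basal body at the membrane, rose from 9.24, 9.34 and 7.12 FPKM to 13.3, 12.9 and 13.5 in EDL and 11, 10.6 and 12.4 in W/Wv (adjusted p = 0.00013 and 0.0032). Ccdc77, a centrosomal coiled-coil protein, rose from 4.73 ± 0.444 FPKM to 7.99 ± 0.514 and 7.24 ± 0.539 (log2 change 0.65 and 0.52, adjusted p = 1.6e-05 and 0.00011).

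Ccdc57 and Cep78 rose in both models as well. Ccdc57, a protein of centriolar satellites, the granules around the centrosome, rose from 4.33 ± 0.585 FPKM to 6.58 ± 0.415 and 6.41 ± 0.666 (adjusted p = 0.00042 and 0.00078). Cep78, a centriolar protein whose loss causes retinal and hearing disease in humans, rose from 2.89 ± 0.422 to 3.84 ± 0.264 and 3.98 ± 0.165 (adjusted p = 0.0062 and 0.0032). Wdr90, a protein of the inner centriole wall, and Ccdc61, a scaffold of the basal body, rose in EDL only by the test against WT (adjusted p = 0.036 and 0.04), and in W/Wv they had adjusted p of 0.88 and 0.075. Neither gene passed between W/Wv and EDL (adjusted p = 0.15 and 0.87). Both EDL calls were lost in a fit of only WT and EDL, without WT library 3 and without EDL library 1 or 3. That of Wdr90 was also lost with the replicate block, and that of Ccdc61 with TMM scaling in edgeR and without EDL library 2 or W/Wv library 3. The adjusted p reached 0.14 for Wdr90 and 0.12 for Ccdc61, and without WT library 2 Ccdc61 passed in W/Wv as well (adjusted p = 0.0093).

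Cep41 and Ccdc66 went the other way. Cep41, which is needed for glutamylation of ciliary tubulin and is mutated in human Joubert syndrome, was at 10.6, 10.01 and 8.93 FPKM in WT, 4.89, 5.42 and 5.45 in EDL and 5.01, 4.66 and 4.53 in W/Wv. The fall in mean FPKM was 1.88-fold and 2.08-fold, with every model library below every WT library (log2 change -0.79 and -0.92, SE 0.07 each, adjusted p = 1.8e-06 and 5.2e-07). Its mean normalized count was 474 in WT, 245 in EDL and 253 in W/Wv, so the order of the models depends on the measure. Ccdc66, a satellite and ciliary protein of photoreceptors, fell from 6.60 ± 0.25 FPKM to 4.91 ± 0.388 and 4.32 ± 0.334 (adjusted p = 0.00088 and 7e-05). Of its exon bases 35.5% are also exons of Fam208a on the opposite strand (GENCODE M21), and no source used here says whether the counting was by strand. Cep83, Cep44, Ccdc14 and Ccdc68, which act at appendages, centrioles or satellites, did not pass in either model. Cep83, also a distal appendage protein, was at 8.84 ± 0.804 FPKM in WT and 7.64 ± 0.15 in EDL, with an adjusted p of 0.059 by limma and 0.046 by edgeR. With median-ratio scaling, in a fit of only WT and EDL, or without WT library 1 or W/Wv library 1 or 2 Cep83 passed in EDL (lowest adjusted p of 0.029), and without W/Wv library 2 in W/Wv (adjusted p = 0.044). Cep44 showed 5.77 ± 0.56, 5.75 ± 0.676 and 5.72 ± 0.483 FPKM.

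Other genes of cilia and centrosomes that the symbol rule leaves out were counted from lists chosen by function. Of 71 listed genes of the primary cilium, 9 were in the table and 8 were tested, of which 4 rose and 2 fell in EDL and 3 rose and 2 fell in W/Wv, shares that lie near those of the table, of which 75.3% changed in EDL and 70.3% in W/Wv. Anks6, a partner of nephronophthisis proteins at the base of the cilium, rose from 3.36 FPKM in WT to 5.14 in EDL and 5.69 in W/Wv (adjusted p = 0.0005 and 0.0001). Arl6, the GTPase that recruits the BBSome, fell from 21 to 16.3 and 15.2 (adjusted p = 0.00029 and 4.3e-05). Of 45 listed centrosomal genes, 10 were in the table and 9 were tested, of which 2 rose and 2 fell in EDL and 2 rose and 4 fell in W/Wv, against the same shares of the table. Tubgcp3, of the gamma-tubulin complex, rose from 9.79 to 12.5 and 11.8 FPKM (adjusted p = 0.00025 and 0.0017), and Ssx2ip, a satellite protein, fell from 21.9 to 16.6 and 15.8 (adjusted p = 7.2e-05 and 2.2e-05). Car12 and Atp6v0a4, markers of clear and narrow cells, also rose beside the centriolar members, where 39.4% of the table rose in EDL and 35.3% in W/Wv. Of 9 markers listed for these cells, 3 were in the table. Car12, a carbonic anhydrase, rose from 11.6 ± 3.33 FPKM in WT to 36.6 ± 1.85 in EDL and 52.4 ± 2.88 in W/Wv (log2 change 1.62 and 2.12, adjusted p = 6.5e-06 and 9.2e-07). Atp6v0a4, a proton pump subunit, rose from 2.93 ± 0.351 to 4.37 ± 0.499 and 5.21 ± 0.318 (adjusted p = 0.00085 and 5e-05). The part of these cells in the rises was not tested. Of 12 principal cell markers, 7 were in the table, of which 1 rose and 4 fell in EDL and 1 rose and 5 fell in W/Wv, again beside 75.3% and 70.3% of the table that changed. Markers listed for basal cells, smooth muscle, endothelium, leukocytes and fibroblasts were not analysed here.

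Members that share only a protein repeat or a symbol with the ciliary families held the largest rises. Wdr25, a WD-repeat protein of unknown role, was at 4.92, 4.11 and 6.38 FPKM in WT, 22.5, 21.7 and 21.1 in EDL and 14.3, 13 and 15 in W/Wv. This was 4.24-fold and 2.75-fold of WT, with the 3 groups fully separated (log2 change 1.91 and 1.31, SE 0.11 each, adjusted p = 5.1e-08 and 1.1e-06). Ccdc159, a coiled-coil protein, rose from 1.19, 1.04 and 1.52 FPKM to 5.05, 4.20 and 4.29 in EDL and 3.12, 3.82 and 4.08 in W/Wv, 3.61-fold and 2.94-fold (adjusted p = 6.4e-07 and 3.9e-06). Ttc39aos1 is a noncoding transcript (chromosome 4, 109402279 to 109406257, mm10) named as opposite to Ttc39a, and it entered by its symbol alone. It rose from 6.23, 5.57 and 4.90 FPKM to 13.3, 14.2 and 13.4 in EDL and 9.86, 11.2 and 11 in W/Wv (adjusted p = 1.1e-07 and 2e-06). No exon base of it is shared with another gene in GENCODE M21. Lrrc75b rose from 9.05, 9.82 and 9.83 FPKM to 15.9, 18.2 and 16.9 in EDL and 22.5, 19.6 and 22.4 in W/Wv (adjusted p = 1.2e-06 and 6.6e-08). In Wdr25, Ccdc159, Ttc39aos1 and Lrrc75b every model library lay above every WT library.

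Smaller rises were those of Ttc14, Wdr91 and Wdr1. Ttc14 rose from 6.25 ± 0.507 FPKM to 10.3 ± 0.743 and 8.78 ± 0.0662 (adjusted p = 5.3e-06 and 0.00015), with 12.5% of its exon bases shared with the ciliary gene Ccdc39 on the opposite strand. Wdr91, a regulator of endosome maturation, rose from 3.90 ± 0.172 to 5.47 ± 0.83 and 6.16 ± 0.141 (adjusted p = 0.0016 and 0.00016). Wdr1, which speeds actin disassembly with cofilin, was the most abundant member at 58.7 ± 0.734 FPKM in WT and rose to 66.2 ± 1.6 and 77.2 ± 0.867 (adjusted p = 0.0032 and 6e-06). Wdr5, a scaffold of histone methyltransferase complexes, rose in EDL from 13.5 ± 0.401 to 15 ± 0.372 (adjusted p = 0.025), a call lost with median-ratio or TMM scaling and without WT library 1 or 2 or EDL library 2 or 3, where the adjusted p reached 0.096. Ccdc33 had normalized counts of 26.7, 16.1 and 27.1 in WT, 36.1, 34.7 and 32.2 in EDL and 39.2, 41.5 and 50.5 in W/Wv. It rose by edgeR in W/Wv (adjusted p = 0.0025). Its EDL call (adjusted p = 0.041) was lost with the replicate block, in a fit of only WT and EDL and without WT library 2 or any single EDL library, with an adjusted p of up to 0.21.

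Other members that share a repeat fell, none of them by 2-fold in a ratio of means. Wdr47, a microtubule-binding protein that organises the central pair of cilia, fell from 9.44, 8.27 and 8.30 FPKM to 5.73, 6.54 and 6.41 in EDL and 6.11, 5.80 and 5.63 in W/Wv (log2 change -0.42 and -0.50, SE 0.07 each, adjusted p = 0.00024 and 7.2e-05). Despite that role, Wdr47 was grouped by its repeat and left out of the axonemal counts. Lrrc27 fell from 4.35 ± 0.307 to 3.35 ± 0.335 and 3.45 ± 0.0672 FPKM (adjusted p = 0.0041 and 0.0093), and Ttc33 from 17.6 ± 0.376 to 14.3 ± 0.745 and 15.1 ± 1.04 (adjusted p = 0.0012 and 0.0093). Wdr48, a cofactor of deubiquitinases, fell from 15.3 ± 0.543 to 13.4 ± 0.297 and 13.3 ± 0.147 (adjusted p = 0.0051 and 0.005), with 25.8% of its exon bases shared with Gorasp1 on the opposite strand. Ccdc127 fell from 13.3 ± 0.845 to 11.4 ± 0.179 and 11.7 ± 0.486 (adjusted p = 0.0065 and 0.023); 28.8% of its exon bases are shared with Lrrc14b on the opposite strand, and the W/Wv call was lost without WT library 1 or 3 or W/Wv library 3 (adjusted p of up to 0.085). Ttc3, a ubiquitin ligase, fell in EDL from 30.4 ± 0.429 to 27.8 ± 1.17 (adjusted p = 0.028), a call lost without WT library 1 or EDL library 1 or 3 and with the replicate block, where the adjusted p was up to 0.12. Ccdc84, also named Cenatac, fell in W/Wv from 10.2 ± 1.13 to 7.66 ± 0.44 (adjusted p = 0.0023) and stood at 8.95 ± 0.826 in EDL (adjusted p = 0.094), where it passed without WT library 2 or without EDL library 1 (lowest adjusted p of 0.038). Wdr36, Lrrc42, Lrrc71 and Ccdc171 did not pass in either model by limma, and Lrrc39, with 36, 53 and 29 reads, did not by edgeR. With the replicate block or without WT library 1 Lrrc42 passed in both models, and without EDL library 2 in EDL (lowest adjusted p of 0.03 and 0.028).

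The models were then compared with each other. EDL and W/Wv differ in the block, in surgery and in the Kit genotype with its loss of germ cells and mast cells. The effects of these cannot be told apart here. Of the 45 tested members 5 differed between W/Wv and EDL, 2 higher and 3 lower in W/Wv, while 14% of the table differed, 6.95% higher and 7% lower. The libraries of W/Wv and EDL did not overlap for 17 of 61 members, beside 35.4% of the table. The count was 8 without WT library 3 and 8 in a fit of only these groups. Lrrc10b, a leucine-rich repeat gene (chromosome 19, 10455371 to 10457447, mm10), was at 4.86, 5.71 and 5.56 FPKM in WT, 7.54, 6.21 and 7.54 in EDL and 2.80, 3.59 and 2.78 in W/Wv. WT lay between the models without overlap. Lrrc10b rose in EDL (log2 change 0.34, SE 0.10, adjusted p = 0.0085), fell in W/Wv (-0.65, SE 0.10, adjusted p = 0.00011) and was 2.32-fold lower in W/Wv than in EDL (-1.0, SE 0.10, adjusted p = 0.0001).

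Wdr25 and Ttc39aos1 rose in both models, and their W/Wv level lay below the EDL level, with log2 changes of -0.59 (SE 0.11, adjusted p = 0.0055) and -0.32 (SE 0.08, adjusted p = 0.019). The call of Ttc39aos1 was lost without any single EDL library or W/Wv library 1 (adjusted p of up to 0.082). Lrrc75b and Wdr1 rose in both and were higher in W/Wv, by 0.32 (SE 0.07, adjusted p = 0.0097) and 0.22 (SE 0.04, adjusted p = 0.0055). By edgeR 7 of 59 members differed, beside 13.6% of the table (7.25% higher, 6.34% lower); the added genes were Dnah11 and Ttc14, both lower in W/Wv (adjusted p = 0.015 and 0.018, against 0.10 and 0.067 by limma). Ttc14 also passed by limma in a fit of only these groups and without WT library 1 or 3. None of the 7 axonemal and 13 centriolar members tested by limma passed between the models, while edgeR called Dnah11 among them. Without WT library 3 or in that same fit, Cep164 and Wdr90 passed too (lowest adjusted p of 0.034 and 0.04). A p above the threshold does not show equal levels: for Efhc2 the difference was 0.11 (SE 0.10), for Cfap58 0.09 (SE 0.09) and for Cep41 -0.13 (SE 0.07) on the log2(FPKM + 1) scale. For Cep41 the edgeR log2 change was 0.05, of the opposite sign.

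**Figure D4:**
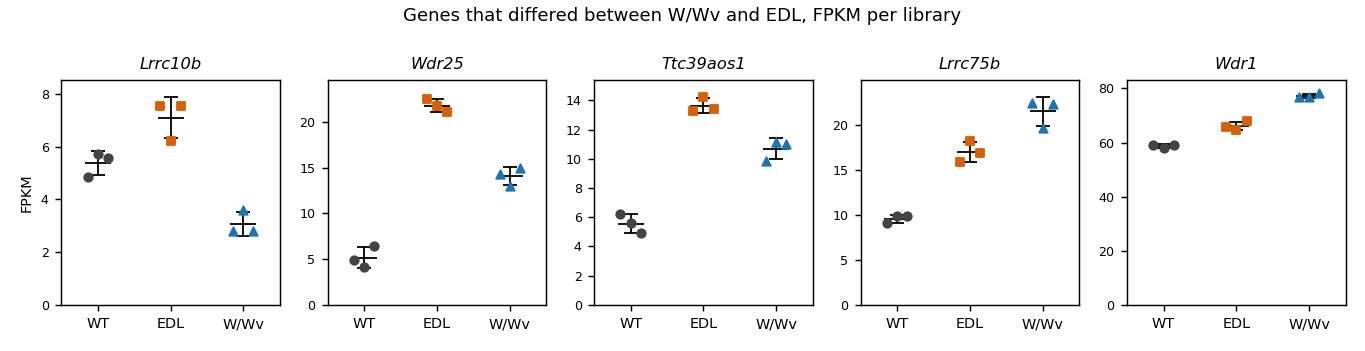
FPKM per library (y axis from 0) of the 5 members that differed between W/Wv and EDL; symbols are libraries, and bars are the mean ± SD of 3. Lrrc10b lies above WT in EDL and below WT in W/Wv, whereas Wdr25, Ttc39aos1, Lrrc75b and Wdr1 lie above WT in both.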

How the data were processed

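Messenger RNA of 9 caput libraries was measured, 3 per group, with a TruSeq stranded mRNA kit, per the labels' protocols; titles give groups and numbers. Per the submitters' processing notes, the tools were TopHat2 2.1.1 and Cufflinks 2.2.1 and the build mm10; their order is not recorded. Per the file headers, the authors deposited 9 columns of normalized FPKM and 9 of normalized count, a signal equal to reads divided by 1 factor per library. Whole reads were recovered from it: 98.6% to 99.0% of values per library came out whole within 0.1 of a read, with factors of 0.922 to 1.25. No source used here says how the 2462 genes were chosen or whether counting used the strand.

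The main test was limma 3.58.1 (R 4.3.3; trended, robust empirical Bayes) on log2(FPKM + 1), for genes with 1 FPKM or more in at least 3 libraries, all 9 libraries in 1 fit, with Benjamini-Hochberg adjustment over the 2013 genes tested and a threshold of 0.05. Members below the filter were tested with edgeR 4.0.16 (quasi-likelihood) on recovered reads scaled by the deposited factors, for 2415 genes with 10 reads or more in all; it called 1766, 1615 and 328 genes in EDL against WT, W/Wv against WT and W/Wv against EDL. Groups at 0 were set at a floor of 3 reads. Both tests were tried on simulated data. Alternatives were leaving out each library, a replicate block, edgeR, median-ratio scaling, a fit without the uninvolved group, a pseudocount of 0.1, and filters at 5 FPKM or absent; TMM scaling and the alternatives of the edgeR results for low members were chosen after seeing the data. The numbers in the titles did not pair libraries: deviations of same-numbered libraries correlated at -0.343 to 0.0844.

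Members, roles and lists were chosen with earlier results of these data known. By rule, the text names the 8 called members that fell and the 8 that rose most against WT in each model, those called between the models, of the members below the filter the 8 that fell and the 4 that rose most in EDL by edgeR, and the 3 most abundant of each family; the others are given to account for all 61. Roles are background knowledge. Of the clear and narrow cell list, only some markers are reported here. Coordinates are from RefSeq (GRCm38.p6, which mm10 names), matched by gene identifier for all 61.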

Additional observations from a re-analysis of the deposited data

How the results depend on the processing

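Of 86 calls on all members, none reversed over 1338 alternative values: 1286 kept direction and call and 52 lost the call, in 14 of the 86. The count of all genes that differed between W/Wv and EDL, 281, was 428 in a fit of only these groups and 172 to 388 without single libraries. Of the members, 5 differed, 8 in that fit and 4 to 8 without single libraries. The counts of changed members were 28 to 33 in EDL and 25 to 28 in W/Wv without single libraries. The cause was not tested. With the replicate block, 1485, 1380 and 219 genes and 31, 29 and 5 members were called in EDL against WT, W/Wv against WT and W/Wv against EDL. The replicate numbers are only names, since same-numbered libraries did not deviate together. Depth limits the 16 members below the filter: a gene with under 10 reads in all could not be tested, and a group without reads gives only a bound. Ratios of low members cover counting error only.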
